A study of Mus musculus with 6 samples.

Results

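The Skint genes (Skint1 to Skint11) are a family of immunoglobulin-like genes on mouse chromosome 4, and 10 of them are described here: Skint1, Skint2, Skint3, Skint4, Skint5, Skint6, Skint7, Skint9, Skint10 and Skint11. Their members on the array were found by gene name among the non-control probes and every probe was kept apart, which gave 24 probes for 10 genes out of 56605 probes and 37074 named entries in all. The family was chosen from measured values of these same tumours, in which Skint3, Skint4 and Skint11 differed between the genotypes, so the differences below are a description and no test is read from them. Skint8, which is not among the 10, is given for comparison only.

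Skin tumours from male mice were profiled on 6 one-colour arrays, 3 for tumours labelled P2ry6+/+ (wild-type) and 3 for tumours labelled P2ry6-/- (knockout). All tumours were raised in the same way, on shaved back skin, with a single dose of 195 nmol of the mutagen DMBA in 200 uL of acetone followed by the promoter TPA, 16 nmol at each of 2 weekly applications, up to week 22. The study treated 12 mice of each genotype, and the question is how expression differs with and without P2ry6, a receptor for uridine diphosphate. The labels give neither the strain nor the age of the mice nor the part of P2ry6 that was removed, and they do not say that each tumour came from a separate mouse. Statistics over these samples therefore measure only the spread between them.

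Skint genes encode membrane proteins with an immunoglobulin variable-like domain and several membrane-spanning stretches, and they are related to the butyrophilins. The best known is Skint1, which epithelial cells of the thymus need in order to mature the gamma-delta T cells that later settle in mouse epidermis as dendritic epidermal T cells. Skint genes are transcribed mainly in thymus and skin, where keratinocytes are the known source.

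Each probe is an oligonucleotide of 60 bases, and the part of the transcript it reads decides what its signal can show. The first 30 bases are given here, 5′ to 3′, for the probes with the largest differences between genotypes, for the other Skint3 probe and for the brightest Skint7 probe, with capitals marking a repeat of T and G in the last.
Skint3 A_55_P1978895: agttgagaggcatctgagttgtttcctgtc
Skint3 A_55_P1978890: tgatgcaataagacacagataaacattaat
Skint4 A_55_P2110450: tgatgggttaggggattttgtgggtagaga
Skint11 A_52_P169595: agaggatgaggatcttcaatctttttcaga
Skint10 A_66_P124757: ccaggtactttcctttcgatgctttccatg
Skint7 A_55_P2120388: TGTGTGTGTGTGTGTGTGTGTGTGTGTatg

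The probes of the family were compared with each other base by base without gaps, to see which are alike in sequence. There were 325 pairs among the 24 probes and the 2 of Skint8, 301 of them between genes. Only 1 pair matched at more than 35 bases, a Skint7 and a Skint8 probe identical at 48 of 60 bases. It is shown here in full with the 12 differing bases in capitals.
Skint7 A_55_P1975718: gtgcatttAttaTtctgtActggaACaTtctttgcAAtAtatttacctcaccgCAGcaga
Skint8 A_55_P1987817: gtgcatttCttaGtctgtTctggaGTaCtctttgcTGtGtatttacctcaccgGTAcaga
The next closest pair was identical at 29 bases, and no other pair shared a run of more than 13 bases. Signal of this Skint7 probe and this Skint8 probe is therefore uncertain as to its gene. Transcripts were not searched, so a match of the other probes to another member's RNA outside the probes compared stays unknown.

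Values below are log2 of the processed signal minus the array's 75th percentile, so that 0 lies at that percentile, and a probe counts as detected where the scanner software marked it as well above background. By array, 54.2% to 59.4% of non-control spots were detected. The keratinocyte identity of the samples showed in both genotypes, with 30 or 31 of 33 probes for basal keratinocyte genes such as Krt5 and Krt14 detected on each array. The targeted gene, P2ry6, did not read lower where the labels say knockout. Its probe A_55_P2934712 was 0.54 higher there (SE 0.24, limma adjusted p = 0.41) and its probe A_55_P2717089 was 0.41 higher (SE 0.20, limma adjusted p = 0.47). Every direction below follows the labels. In tumour RNA, fewer cells of a type and less RNA per cell cannot be told apart.

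More Skint probes were detected in the labelled wild-type tumours than in the labelled knockout tumours. Of the 24 probes, 13, 15 and 11 were detected in the labelled wild-type tumours, here and below in the order of replicates 1 to 3, and 4, 8 and 4 in the labelled knockout tumours. Of all non-control spots, 56.3%, 59.4% and 56.5% were detected on the labelled wild-type arrays. On the labelled knockout arrays 54.2%, 55.3% and 56.1% were. The lowest detected value of any probe was -4.03, -4.47 and -4.08 on the labelled wild-type arrays. On the labelled knockout arrays it was higher, at -3.80, -3.91 and -3.92, so the counts of dim probes rest on unlike cutoffs. Across both genotypes, 8 of the 10 genes had a probe detected on all 3 labelled wild-type arrays, Skint7 only through a repeat-bearing probe described below, and Skint5 and Skint6 had none on any array. By probe, 4 were detected on all 6 arrays, 4 on all labelled wild-type arrays and 1 labelled knockout array, 3 on all labelled wild-type arrays and no labelled knockout array, 4 on some labelled wild-type arrays only, and 9 on no array. None was detected in a labelled knockout tumour without being detected in a labelled wild-type one.

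**Figure D1:**
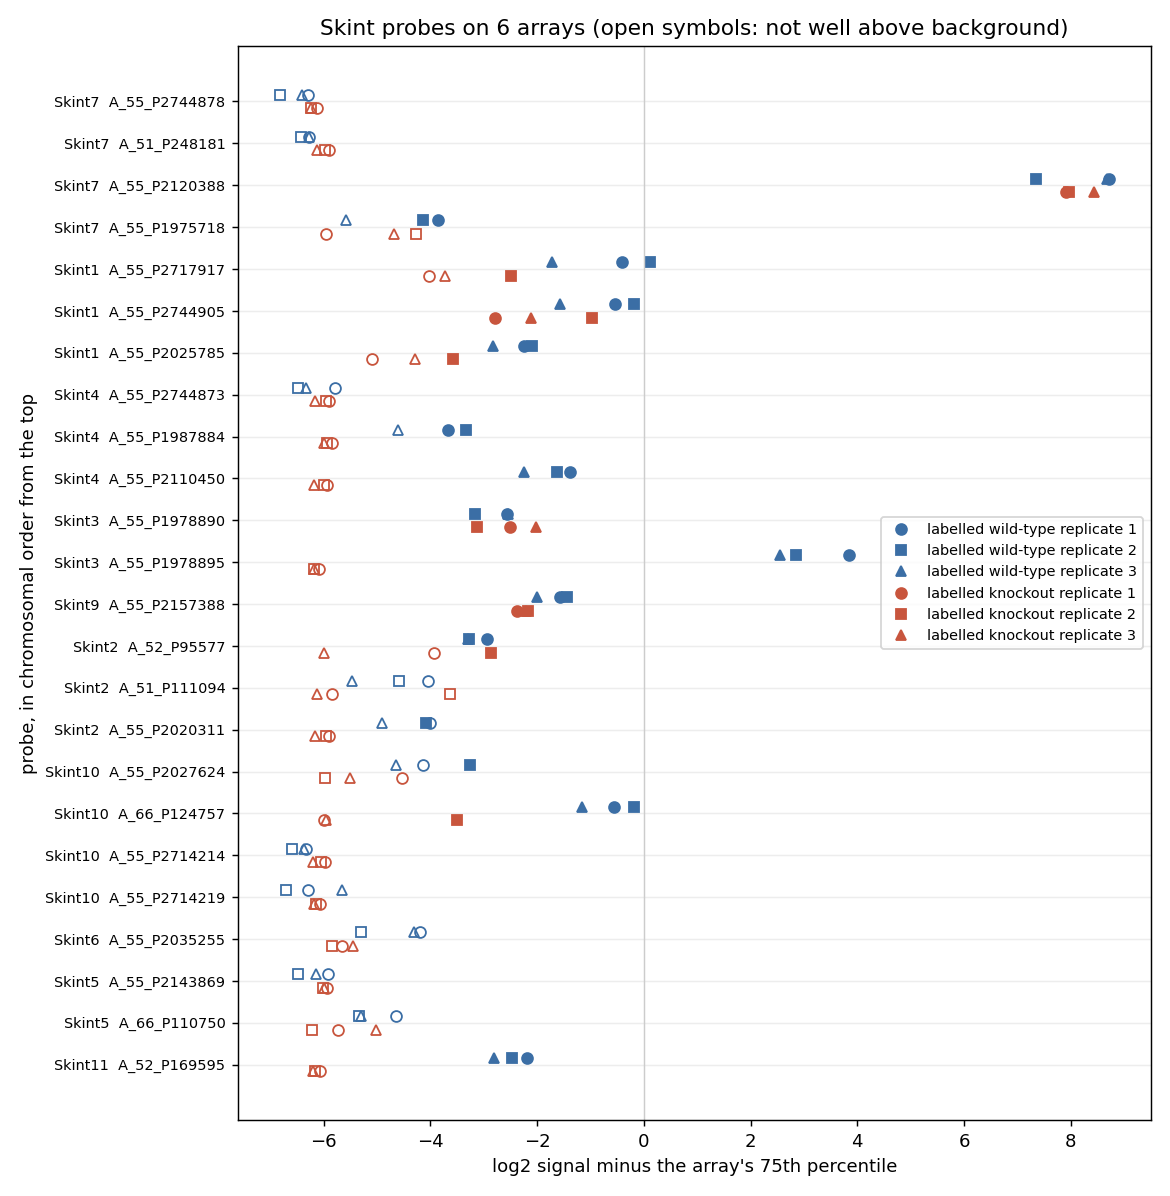
Each row is 1 of the 24 Skint probes and each symbol 1 array, placed by its log2 signal minus the array's 75th percentile; blue is labelled wild-type, red labelled knockout, the shape gives the replicate, and open symbols were not well above background. The Skint3 probe A_55_P1978895 shows the widest gap, from at least 2.56 in blue to about -6.1 in red, while the other Skint3 probe has blue and red mixed.

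Because a probe had to be detected on every array of at least 1 genotype to enter the fit, 11 of the 24 probes (from 8 genes) were tested and 13 were not. Over the 11, 10 read lower under the knockout label and 1 higher, and the median difference was -1.92; over all 29725 probes tested, 14006 were lower and 15719 higher, with a median of 0.02. The adjusted p fell under 0.05 for 3 of the 11, all lower, where 0.145% of all probes tested passed in either direction and 0.0875% passed as lower. Every labelled knockout array lay below every labelled wild-type array for 7 of the 11, against 6.91% of all probes tested. Since the family was picked from this contrast and the filter favours probes that are high in 1 genotype, nothing is read from these counts.

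Skint3 gave the largest difference in the family, and only 1 of its 2 probes showed it. The probe A_55_P1978895, at chr4:111973014-111973073 (mm9, forward strand), was designed on transcript variant 2 of the gene and starts at base 3567 of that transcript. It read 3.85, 2.86 and 2.56 in the labelled wild-type tumours and -6.08, -6.19 and -6.18 in the labelled knockout tumours. All 3 labelled wild-type tumours lay above the 75th percentile of their arrays and all 3 labelled knockout tumours at the floor, where the probe was not well above background. In signal units this was 4910, 2666 and 1895 against 4.40, 4.12 and 3.83. The means were 3.09 ± 0.67 (SD, n = 3) and -6.15 ± 0.06 (SD, n = 3), a difference of -9.24 (SE 0.33). Set against the lowest detected signal of any probe on each labelled knockout array, Skint3 read by this probe was at least 125-fold lower. Every "at least" value here is relative to that signal and is not a strict limit, since some undetected probes read above it. In labelled knockout replicate 2, where the lowest detected value was -3.91, the undetected Skint2 probe A_51_P111094 read -3.62.

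The other Skint3 probe, A_55_P1978890, lies 2223 bases upstream at chr4:111970791-111970850 (mm9) and was designed on transcript variant 1. It was detected on all 6 arrays and read -2.56, -3.16 and -2.54 in the labelled wild-type tumours and -2.51, -3.13 and -2.03 in the labelled knockout tumours. The genotypes overlapped, with a difference of 0.20 (SE 0.32). In signal units A_55_P1978890 read 58.0, 41.1 and 55.2 against 52.4, 34.2 and 67.9. In the labelled wild-type tumours it was thus far dimmer than A_55_P1978895. The 2 Skint3 probes therefore did not move together. A_55_P1978890 was dim and similar in all tumours, and A_55_P1978895 was detected in the labelled wild-type tumours only. Whether the dim signal comes from Skint3 RNA was not tested. Neither Skint3 probe resembles another Skint probe by more than 29 of 60 bases, but the transcripts of other members were not searched.

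Skint4, which lies next to Skint3 in the cluster, had 3 probes designed on the same transcript at different positions. The probe farthest into the transcript, A_55_P2110450 at chr4:111840593-111840652 (mm9, transcript base 3908), read -1.38, -1.63 and -2.25 in the labelled wild-type tumours and -5.93, -5.99 and -6.17 in the labelled knockout tumours. All labelled wild-type tumours were detected and no labelled knockout tumour was, with no overlap. The means of -1.75 ± 0.45 (SD, n = 3) and -6.03 ± 0.13 (SD, n = 3) differed by -4.28 (SE 0.24), at least 4.35-fold lower. The probe A_55_P1987884, 758 bases upstream at transcript base 3150, read -3.68, -3.34 and -4.61 against -5.85, -5.93 and -5.99; labelled wild-type replicates 1 and 2 alone were detected, and it was not tested. The Skint4 probe A_55_P2744873, at transcript base 1657, was detected on no array.

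Skint11 lies at the far end of the cluster, 2.26 Mb from the first Skint7 probe, and has 1 probe, A_52_P169595, at chr4:113917416-113917475 (mm9). Its values were -2.19, -2.48 and -2.80 in the labelled wild-type tumours and -6.07, -6.16 and -6.19 in the labelled knockout tumours. As with Skint4, detection was complete in 1 genotype and absent in the other. The means of -2.49 ± 0.31 (SD, n = 3) and -6.14 ± 0.06 (SD, n = 3) differed by -3.65 (SE 0.19), at least 2.62-fold lower.

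The size of these differences at dim probes depended on the background correction. With normexp correction and an offset of 50 units, which lifts dim signals before the log is taken, the Skint3 probe A_55_P1978895 differed by -5.48, the Skint4 probe A_55_P2110450 by -1.22 and the Skint11 probe by -0.86, and of the 3 only the Skint3 probe still passed the threshold. The probes described next shrank too. With the same correction the Skint10 probe A_66_P124757 differed by -1.76, the Skint1 probes A_55_P2717917, A_55_P2744905 and A_55_P2025785 by -1.38, -0.73 and -0.46, the Skint2 probe A_52_P95577 by -0.07, the Skint9 probe by -0.25 and the Skint8 probe A_55_P1987817 by -0.34.

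Skint10 was lower in the labelled knockout tumours, with detected signal left in 1 of them. The probe A_66_P124757, at chr4:112383814-112383873 (mm9, reverse strand), read -0.56, -0.18 and -1.17 in the labelled wild-type tumours and -5.99, -3.50 and -5.95 in the labelled knockout tumours. Among the latter it was detected in replicate 2 only, and the genotypes did not overlap. The means of -0.63 ± 0.50 (SD, n = 3) and -5.14 ± 1.43 (SD, n = 3) differed by -4.51 (SE 0.68), a value that rests in part on the floor because replicates 1 and 3 were not detected. Of the other 3 Skint10 probes, A_55_P2027624 was detected in labelled wild-type replicate 2 only, at -3.25, and A_55_P2714214 and A_55_P2714219 on no array.

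Skint1, the member with the known role in T cell maturation, was read by 3 probes spread over 17196 bases, all 3 detected in every labelled wild-type tumour. The probe A_55_P2744905 (chr4:111691778-111691837, mm9) was detected on all 6 arrays, with -0.54, -0.18 and -1.56 in the labelled wild-type tumours and -2.79, -0.97 and -2.11 in the labelled knockout tumours. These values overlapped, since labelled knockout replicate 2 lay above labelled wild-type replicate 3, and the difference was -1.20 (SE 0.53). It was -0.78 without labelled knockout replicate 1 and -1.69 without replicate 2. The probe A_55_P2717917 (chr4:111684888-111684947) read -0.42, 0.12 and -1.71 against -4.03, -2.48 and -3.73, a difference of -2.74 (SE 0.56). The probe A_55_P2025785 (chr4:111702084-111702143) read -2.25, -2.10 and -2.83 against -5.10, -3.58 and -4.28, a difference of -1.92 (SE 0.40). For both of these the genotypes did not overlap, and labelled knockout replicate 2 was the only labelled knockout tumour with a detected signal. All 3 Skint1 probes were highest in replicate 2 among the labelled knockout tumours, and ranked labelled wild-type replicate 2 highest and replicate 3 lowest.

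Skint2, also named B7S3, had 3 probes. The one tested, A_52_P95577 (chr4:112296874-112296933, mm9), read -2.95, -3.28 and -3.30 in the labelled wild-type tumours and -3.93, -2.87 and -5.99 in the labelled knockout tumours. Labelled knockout replicate 2 was the highest of all 6 arrays, so the genotypes overlapped, and the difference was -1.09 (SE 0.71). It was -0.23 without labelled knockout replicate 3 and -1.79 without replicate 2. Its probe A_51_P111094 was detected on no array, and A_55_P2020311 in labelled wild-type replicate 2 only, at -4.07.

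Skint9 differed least among the genes whose genotypes did not overlap. Its probe A_55_P2157388 (chr4:112058691-112058750, mm9, reverse strand) was detected on all 6 arrays, with -1.57, -1.43 and -2.0 in the labelled wild-type tumours and -2.38, -2.17 and -2.22 in the labelled knockout tumours. The means of -1.67 ± 0.30 (SD, n = 3) and -2.26 ± 0.11 (SD, n = 3) differed by -0.59 (SE 0.19), about 1.5-fold.

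**Figure D2:**
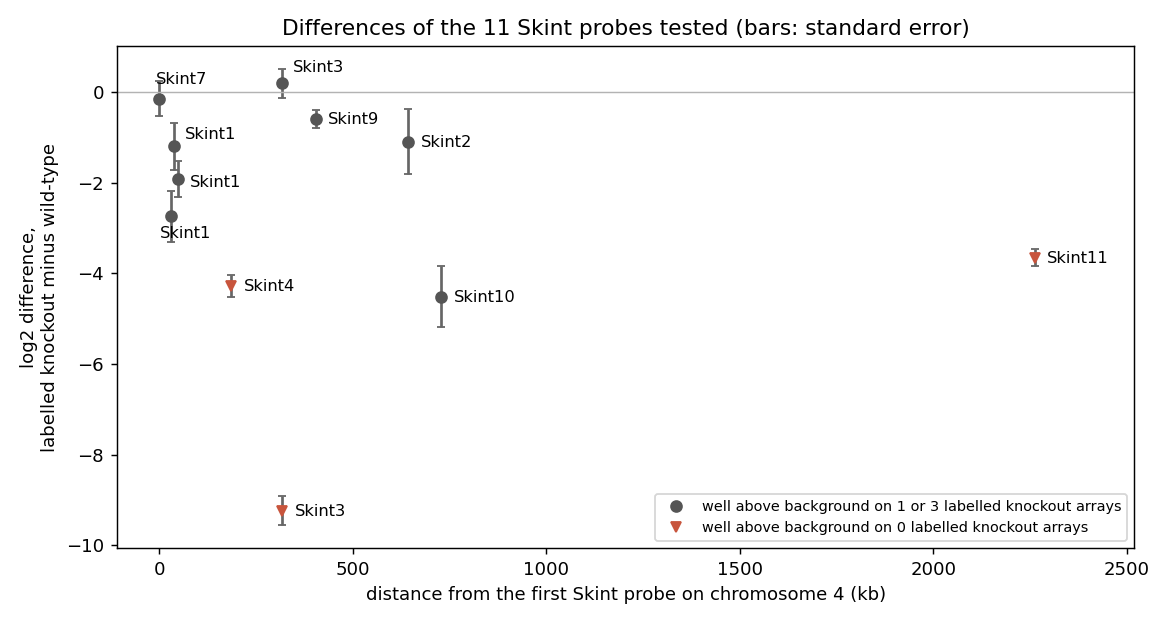
The log2 difference (labelled knockout minus labelled wild-type, with its standard error) of the 11 Skint probes tested is plotted against distance along chromosome 4 in kb from the first Skint probe. Red triangles, for probes detected on no labelled knockout array, are at -9.24 (Skint3), -4.28 (Skint4) and -3.65 (Skint11), and the second Skint3 probe lies at 0.20 beside the first.

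Skint7 held the brightest probe of the family, and it carried a simple repeat. The probe A_55_P2120388 (chr4:111655244-111655303, mm9) begins with the 27-base run of alternating T and G shown above. It read 8.72, 7.35 and 8.67 in the labelled wild-type tumours and 7.91, 7.96 and 8.43 in the labelled knockout tumours, a difference of -0.15 (SE 0.39). The genotypes overlapped, with labelled wild-type replicate 2 lowest of all 6 arrays. On the array, 48 of 56605 probes (0.0848%) held a run of alternating T and G of at least 20 bases, and all 48 were detected on every array. The order of the 6 arrays was the same for the median of the other 47 such probes as for the Skint7 probe. Centred on its own mean, the Skint7 probe gave 0.55, -0.82 and 0.50 in the labelled wild-type tumours and -0.26, -0.21 and 0.25 in the labelled knockout tumours. The medians of the other 47 were 0.65, -0.87 and 0.51, and -0.37, -0.19 and 0.26.

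**Figure D3:**
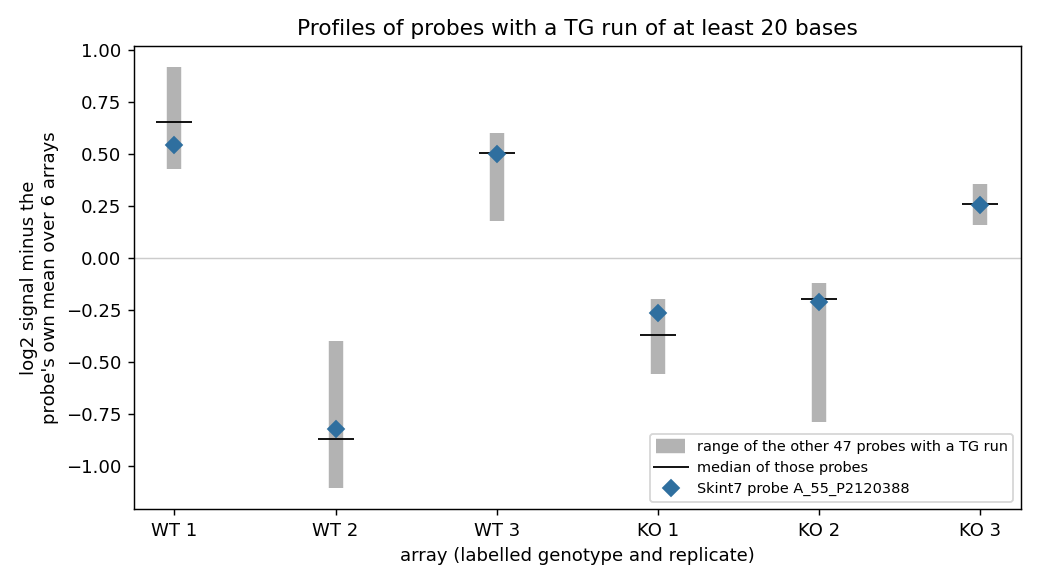
For each array, the grey bar spans the centred log2 signal (signal minus the probe's own mean over the 6 arrays) of the other 47 probes with a run of T and G of at least 20 bases, the black dash is their median, and the diamond is the Skint7 probe A_55_P2120388. The diamond lies inside the grey bar on every array, highest in labelled wild-type replicate 1 (0.55) and lowest in labelled wild-type replicate 2 (-0.82).

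The non-member probes with a gene symbol whose profiles lay closest to that Skint7 probe belonged to Zcchc9, Sema4c, Itsn1, Ankrd29 and Gm6994, at root mean square distances of 0.04 to 0.05 over the 6 arrays. The longest runs of T and G in these probes were 41, 23, 28, 3 and 15 bases in that order. Of the 50 tested probes most like the Skint7 probe, 32 held a run of at least 20 bases. The distance of the other 47 repeat probes from it was 0.04 to 0.30, with a median of 0.11, against a median of 0.53 for all other tested probes. The butyrophilin gene Btn1a1 also had a probe with such a run (A_55_P2029235, 22 bases), at 7.08, 5.32 and 6.84 against 5.87, 6.13 and 6.53. The signal of A_55_P2120388 is therefore not taken as a level of Skint7 RNA.

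The other Skint7 probes gave little signal. The probe A_55_P1975718, which resembles Skint8, read -3.86 and -4.14 in the first and the second labelled wild-type tumour and was detected on no other array; labelled wild-type replicate 3 read -5.58 and the labelled knockout tumours -5.96, -4.28 and -4.67. The probes A_51_P248181 and A_55_P2744878 were detected on no array. For Skint8, the probe A_55_P1987817 read -2.61, -2.52 and -3.76 in the labelled wild-type tumours and -6.06, -3.44 and -5.54 in the labelled knockout tumours, where again only labelled knockout replicate 2 was detected. The genotypes overlapped, with a difference of -2.05 (SE 0.69, limma adjusted p = 0.32).

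Skint5 and Skint6 were not detected. The Skint6 probe A_55_P2035255 read -4.20, -5.30 and -4.30 in the labelled wild-type tumours and -5.65, -5.85 and -5.46 in the labelled knockout tumours, all below the detection mark. The 2 Skint5 probes read -6.47 to -4.65 in the labelled wild-type tumours and -6.23 to -5.03 in the labelled knockout tumours. At this brightness the arrays set a bound and no order, so a difference in Skint5 or Skint6 was not detectable.

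The tested probes that read lower thus differed in what was left in the labelled knockout tumours. Skint3 A_55_P1978895, Skint4 A_55_P2110450 and Skint11 A_52_P169595 were detected in none of the 3. Skint1 A_55_P2717917 and A_55_P2025785, Skint10 A_66_P124757 and Skint2 A_52_P95577, with Skint8 A_55_P1987817 beside them, were detected in replicate 2 alone. Skint9 A_55_P2157388 and Skint1 A_55_P2744905 were detected in all 3, as was the repeat-bearing Skint7 probe. The probes most like Skint3 A_55_P1978895 among all named non-member probes belonged to the muscle myosin gene Myh4, to Car3, to Cfd (2 probes), which encodes the fat-cell protease adipsin, and to the myosin gene Myh8, at distances of 1.20 to 1.53. None of these 5 probes was detected on a labelled knockout array, so part of the likeness is the shared floor. Myh4 read 1.02, 3.96 and 2.47 in the labelled wild-type tumours, highest in replicate 2, where Skint3 was highest in replicate 1.

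Marker lists of the cells that a skin tumour sample can hold moved with some of these values. For 37 skeletal muscle probes, 26, 32 and 29 were detected in the labelled wild-type tumours and 11, 12 and 11 in the labelled knockout tumours. Over the 26 of these that were tested, the mean level was -1.37 to 2.51 in the first group and -4.35 to -4.05 in the second, 2 were called lower and the median difference was -4.32 (-2.86 without labelled wild-type replicate 2). The calls were Myh4 A_51_P338072 (limma adjusted p = 0.0088) and Myh8 A_51_P143296 (limma adjusted p = 0.030). Both were lost without labelled knockout replicate 1 (limma adjusted p = 0.053 and 0.15) or replicate 3 (limma adjusted p = 0.054 and 0.072), and Myh8 also without labelled knockout replicate 2 (limma adjusted p = 0.12) or labelled wild-type replicate 3 (limma adjusted p = 0.089). With normexp correction neither passed (limma adjusted p = 0.092 and 0.13). For 28 adipocyte probes, 19 to 24 were detected against 11 to 13, the mean level of the 19 tested was 0.23 to 1.27 against -1.79 to -1.66, 4 were called lower and the median difference was -2.38. Adipoq, which encodes adiponectin, was at least 4.66-fold lower (limma adjusted p = 0.0069; 0.13 with normexp background correction). Of the 4 adipocyte calls, Car3 A_51_P431329 was lost without labelled knockout replicate 1, 2 or 3 (limma adjusted p = 0.098, 0.068 and 0.072). The Car3 call was also lost without labelled wild-type replicate 1 (limma adjusted p = 0.059) and with normexp correction (limma adjusted p = 0.14). The part of muscle and fat tissue in the Skint values was not tested.

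Hair follicle and sebaceous gland genes were also lower by their medians, with 0 probes called by limma, where 9 of 25 and 10 of 21 had an unadjusted p under 0.05 and 3766 of 29725 did over all probes. Among 33 hair follicle probes, 27, 29 and 24 were detected in the labelled wild-type tumours and 16, 27 and 15 in the labelled knockout tumours. The mean level of the 25 tested was 1.32, 2.56 and -0.55 against -1.82, 0.14 and -1.69, with a median difference of -1.59 (-1.01 without labelled wild-type replicate 2 and -0.98 without labelled knockout replicate 3). Labelled knockout replicate 2 was thus the highest of its group for the mean of hair follicle genes. It was also the highest for the tested probes of Skint1, Skint10, Skint2, Skint9 and Skint8. Skint3 A_55_P1978895, Skint4 A_55_P2110450 and Skint11 A_52_P169595 were not detected there. Among the labelled wild-type tumours the hair follicle mean was highest in replicate 2, as were the tested probes of Skint1, Skint10, Skint9 and Skint8. Skint2 A_52_P95577, Skint3 A_55_P1978895, Skint4 A_55_P2110450 and Skint11 A_52_P169595 were instead highest in labelled wild-type replicate 1. Of the 25 tested hair follicle probes, 19 were lower and 6 higher under the knockout label. For Krt28, a keratin of the inner root sheath and among the lower ones, the difference was -5.45 (SE 1.21, limma adjusted p = 0.19) at its probe A_51_P488780. Among 32 sebaceous gland probes 22 to 26 were detected against 17 or 18, with a median difference of -2.08 over the 21 tested (-1.05 without labelled wild-type replicate 2); their mean level was -0.26 to 2.46 against -1.08 to -0.99. The part of hair follicle and gland tissue in the Skint values was not tested.

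**Figure D4:**
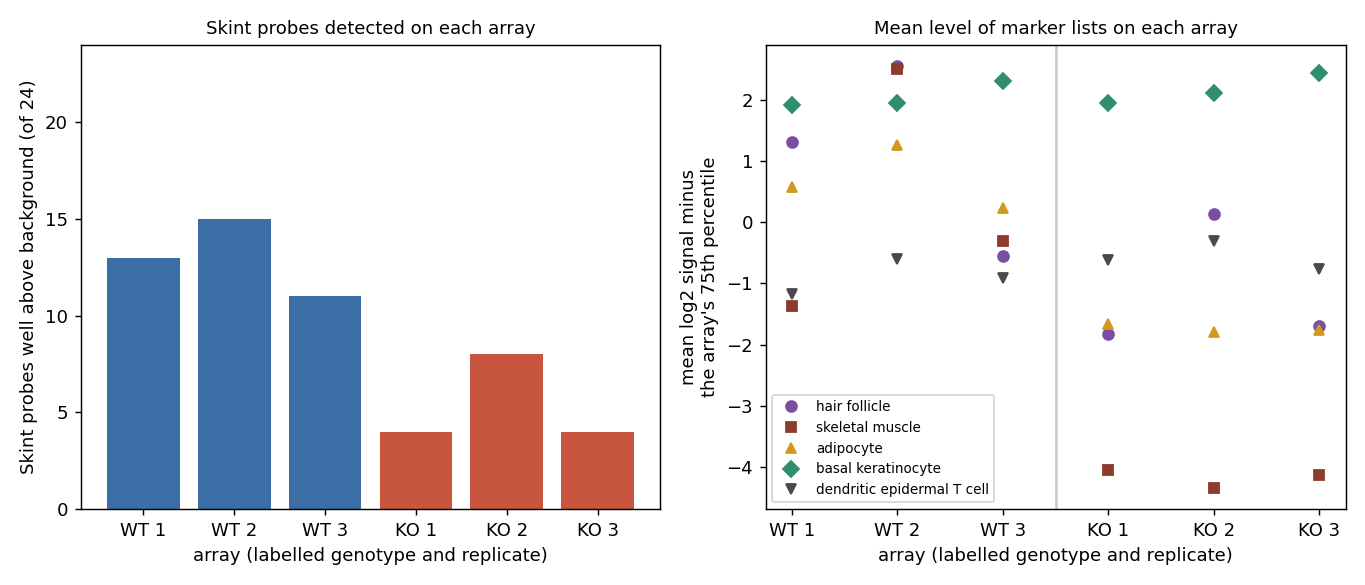
The left panel counts the Skint probes well above background on each array, out of 24, with blue for labelled wild-type and red for labelled knockout; the counts are 13, 15 and 11, then 4, 8 and 4. The right panel gives the mean log2 signal minus the array's 75th percentile of the tested probes of 5 marker lists on each array: muscle and fat are low in all 3 labelled knockout tumours, hair follicle genes are low in replicates 1 and 3 of them, and basal keratinocyte genes stay between 1.92 and 2.44.

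Keratinocyte, immune and other butyrophilin-like genes did not follow the Skint probes in their medians. The tested probes for basal keratinocytes (31) and for suprabasal and cornified keratinocytes (28) had median differences of 0.14 and 0.37, with 0 called by limma in either (3 and 9 at an unadjusted p under 0.05). Without labelled knockout replicate 3 the basal median was -0.04. Krt77, a suprabasal keratin, differed by -2.77 (SE 0.54, limma adjusted p = 0.16), and was detected on no labelled knockout array. The hyperproliferation keratins had 0 of 10 probes called (0 at an unadjusted p under 0.05) and a median of -0.24, which was 0.18 without labelled knockout replicate 2. Of 19 probes for butyrophilin relatives 5 were tested, 1 lower and 4 higher, with 0 called (1 at an unadjusted p under 0.05) and a median of 0.22; Btnl10 differed by 0.63 (SE 0.25, limma adjusted p = 0.37).

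Markers of dendritic epidermal T cells, the cells whose development depends on Skint1, were measured by 12 tested probes of 9 genes. Of these 2 were lower and 10 higher under the knockout label, none was called by limma (0 of 12, and 3 at an unadjusted p under 0.05), and the median difference was 0.25 (0.13 to 0.54 when a sample was left out). Cd7, a surface protein of T and natural killer cells, read -2.65, -1.92 and -2.43 in the labelled wild-type tumours and -0.77, -0.73 and -0.21 in the labelled knockout tumours. The genotypes did not overlap and differed by 1.76 (SE 0.25, limma adjusted p = 0.083). Without labelled wild-type replicate 2 the Cd7 probe passed (limma adjusted p = 0.038), and over all alternatives the adjusted p of this limma test was 0.036 to 0.24. Cd3e, a chain of the T cell receptor complex, differed by 0.48 (SE 0.19, limma adjusted p = 0.37) at its probe A_55_P2156229. The other Cd3e probe, A_51_P455681, differed by -0.44. It was detected on 2 labelled wild-type arrays and 1 labelled knockout array and was not tested. The genes of their receptor chains were not matched by name on the array, so the list does not separate these cells from other T cells. Other leukocyte markers had 1 probe lower and 12 higher, with 0 called (2 at an unadjusted p under 0.05) and a median of 0.26. Langerhans cell markers had 1 lower and 9 higher, with 0 called (0 at an unadjusted p under 0.05) and a median of 0.31, which was 0.16 without labelled wild-type replicate 3 and 0.09 without labelled knockout replicate 2. The fibroblast list had 1 probe called of 21, Mfap5, which encodes a protein of elastic fibres, at least 9.68-fold lower (limma adjusted p = 0.016). The Mfap5 call was lost without labelled knockout replicate 1 (limma adjusted p = 0.098) or replicate 3 (limma adjusted p = 0.068), with no filter on dim probes (adjusted p = 0.061) and with normexp correction (adjusted p = 0.13).

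Genes on either side of the Skint cluster did not share its shift in their median. Of 25 tested probes of 14 flanking genes on chromosome 4, 12 were lower and 13 higher, with a median difference of 0.02 (-0.08 without labelled wild-type replicate 3). Over the alternatives tried, Bend5 was 0.82 to 2.12 higher at its probe A_66_P115034 (limma adjusted p = 0.025 to 0.39). At its probe A_51_P158018 it was 1.03 to 1.86 higher (limma adjusted p = 0.039 to 0.48). Spata6 was 0.35 to 0.68 higher (limma adjusted p = 0.19 to 0.58). Of the 25 probes, 7 had an unadjusted limma p under 0.05, where 3766 of 29725 did over all probes, and 1 was called. The 1 called was D4Ertd617e (chr4:118304405-118304464, mm9), which read -2.05, -2.16 and -1.21 in the labelled wild-type tumours and -5.72, -5.83 and -6.0 in the labelled knockout tumours, at least 4.19-fold lower (limma adjusted p = 0.0064; 0.14 with normexp background correction). D4Ertd617e is not next to the cluster. It lies beyond the last Skint probe, which ends at chr4:113917475, by more than the 2.26 Mb that the Skint probes span. Like Skint3 A_55_P1978895, Skint4 A_55_P2110450 and Skint11 A_52_P169595, the D4Ertd617e probe A_55_P2044339 was detected on all labelled wild-type arrays and on no labelled knockout array.

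Promoter sequences of the family were compared within chosen groups of its genes. The groups were named by hand and do not follow the differences between genotypes, and Skint2 was placed in none. RefSeq sequences on build GRCm38.p6, from 250 bases before to 50 bases after each gene start, were given for all 10 members and Skint8, in 12 entries because Skint4 has 2. In 5 of the genes, Skint1, Skint3, Skint4, Skint5 and Skint6, the longest stretch common to all was 14 bases, AGTACTTGAGTAAT. It was found on either strand in 5 of 32851 promoters (0.0152%), the same 5 Skint entries. Of the 2 Skint4 entries, the one sharing the longest stretch was used, and the other does not hold it. The stretch is shown in capitals within its surroundings, in the direction of each gene, and it begins 231, 103, 47, 228 and 228 bases before the start in the order of the lines.
Skint1 chr4:112006028-112006061: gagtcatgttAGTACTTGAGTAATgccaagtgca
Skint3 chr4:112232132-112232165: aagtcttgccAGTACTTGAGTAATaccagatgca
Skint4 chr4:112081413-112081446: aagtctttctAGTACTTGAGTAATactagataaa
Skint5 chr4:113999708-113999741: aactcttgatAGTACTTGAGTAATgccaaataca
Skint6 chr4:113287178-113287211: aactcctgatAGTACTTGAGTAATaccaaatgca
Skint1, Skint3 and Skint4 had detected probes in every labelled wild-type tumour and Skint5 and Skint6 had none, so the stretch was present in both detected and undetected members.

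A second stretch of 13 bases, TGACTTTCATAAA, was common to Skint9, Skint10 and Skint11 and was found on either strand in 3 of 32851 promoters (0.00913%), the same 3 genes. It begins 199, 113 and 62 bases before the start of the gene in that order.
Skint9 chr4:112434162-112434194: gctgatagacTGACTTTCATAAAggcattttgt
Skint10 chr4:112774952-112774984: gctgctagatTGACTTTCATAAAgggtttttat
Skint11 chr4:114163312-114163344: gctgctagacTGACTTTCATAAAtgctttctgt
These 3 genes differed by -0.59 (Skint9), -4.51 (Skint10 A_66_P124757) and -3.65 (Skint11), so a shared stretch went with both small and large differences. Skint7 and Skint8 shared a run of 51 bases in their promoters. These stretches were found by comparing the Skint promoters with each other, which favours rare ones, and a match is a description of sequence and not a binding site.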

How the data were processed

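Spot brightness stands in the scanner files deposited by the authors as linear intensity, in a processed column with background already taken off and in raw columns of mean and local background signal. The submitters' processing notes name Agilent Feature Extraction 10.7.1.1. A value table deposited by the authors for the whole series holds log2 values; all its columns shared a median of 4.96 and matched the processed signal of their own arrays at r of 0.9994 to 0.99997, which leaves its normalization tool unknown. Per the labels' protocols, Cy3 labelling started from 0.2 ug of RNA. Probe coordinates in the files are on mm9.

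Outlier spots (68 to 184 per array) were left out, spots of a probe were averaged, and log2 of the processed signal was centred on each array's 75th percentile over probes. A probe entered the fit if every array of 1 genotype or both detected it. The fit was made in R 4.3.3 with lmFit and eBayes of limma 3.58.1, as a two-sided test, and p-values were adjusted over all probes tested (Benjamini-Hochberg, threshold 0.05). Files were read with the package data.table (1.17.8). The fit was checked on simulated data. A fold for a probe detected in 1 genotype only takes, per array of the other, the higher of the lowest detected signal and the probe's own. The SE of such probes rests on floor values. Sequences were compared in Python 3.11.15, and figures were drawn with matplotlib 3.10.9. Probes were named through RefSeq's GRCm38.p6 gene list (32994 by accession, 10224 by symbol, 520 by synonym), while 12867 kept the name given on the array.

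The members and the marker lists were chosen with earlier results of these data known. Named are every member probe, P2ry6, D4Ertd617e, the 5 non-member probes most like the member probe of largest difference and that of highest mean, and up to 4 members of a list with the smallest p; Skint8 and the repeat-bearing Btn1a1 probe were added after their values were seen. Alternatives were normexp background correction (offset 50), quantile normalization, median centring, dropping or tightening the filter, trend and robust eBayes, array weights, the value table, the replicate number or the slide column as a block (the latter added after the data were seen), 1 probe per gene name for the count of all probes called, and leaving out each sample. All arrays lay on 1 slide with 1 scan.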

Additional observations from a re-analysis of the deposited data

How the results depend on the processing

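The 3 Skint probes called (Skint3 A_55_P1978895, Skint4 A_55_P2110450 and Skint11 A_52_P169595) were called under 14 of the 16 alternatives tried, among them all 6 that leave out a sample; without labelled knockout replicate 2 the Skint10 probe A_66_P124757 joined them, so the count ran from 3 to 4. With normexp correction 1 was called, and with only probes detected on all 6 arrays 0 were, because that filter removes all 3. Over all probes, 43 were called; the count was 15 with normexp, 22 with no filter, 6 with probes detected on all 6 arrays, 106 with array weights, and 13 (without labelled knockout replicate 3) to 178 (without labelled wild-type replicate 2) when a sample was left out. Of the marker list and flanking probes, 8 were called; the count was 2 with normexp, 5 with no filter, 0 with probes detected on all 6 arrays, 14 with array weights, and 4 to 22 when a sample was left out. No filter moved the median of all probes to 0.18, so differences there are relative to that shift. The list medians that were furthest below 0 kept their sign but shrank with normexp: muscle -2.46, sebaceous gland -1.09, fat -1.0 and hair follicle -0.75. With probes detected on all 6 arrays the hair follicle median was -0.03. The causes were not tested.

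With the replicate number as a block, 6 probes were called in all, the same 3 Skint probes among them, and 0 of the marker list and flanking probes. Deviations of same-numbered samples correlated at 0.096, 0.25 and 0.14, and every sample correlated best with its own number, a hint from the data and not the design; the labels do not say that the numbers pair the samples. P2ry6 had 0 probes called under every alternative (unadjusted p 0.057 and 0.087 in the reported fit). Small differences turned sign under some alternatives: the Skint7 probe A_55_P2120388 ran from -0.60 to 0.16 and the Skint3 probe A_55_P1978890 from -0.07 to 0.48. Probes near background limit what these arrays can show, and precision is limited by having 6 arrays.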

Other observations

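Between the outermost Skint probes the array held 2 probes of other entries, neither with a gene name. The one at chr4:113044158-113044217 (mm9) was well above background in labelled knockout replicate 2 only, at -1.88, and lay between -6.46 and -5.76 on the other 5 arrays. The one at chr4:112265556-112265615 was well above background on no array.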
